A study of Mus musculus with 8 samples.

Results

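Wildtype mouse skin at postnatal day 28 was compared with wildtype skin at postnatal day 19, gene by gene, by RNA sequencing. The 2 libraries were joined on the gene identifier, and every protein-coding gene with at least 1 FPKM (fragments per kilobase of transcript, scaled to the mapped fragments of the library) in either of them was kept. This gave 13649 genes, out of 21976 protein-coding genes and 55418 genes of all types in the files. The threshold fell between Ttc12, kept with 0.894 FPKM at day 28 against 1.001 FPKM at day 19, and Frmd3, not kept with 0.222 FPKM at day 28 against 0.997 FPKM at day 19. The series holds 8 libraries of skin, 1 each for wildtype mice and for spontaneously mutated mice labelled hairloss, at days 0, 16, 19 and 28. The group at day 28 is wildtype skin, the group at day 19 is wildtype skin, and neither carries an allele or treatment named in the labels. The strain, the body site, the sex and the number of animals in a library are not given in the labels, and the mutation of the hairloss mice is not named there. With 1 library a side there was no replicate, so no test was made, and genes were called by size alone.

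Hair follicles cycle through growth (anagen), regression (catagen) and rest (telogen). In mice the first cycle ends in a short rest in the third postnatal week, and the second growth phase starts soon afterwards and is nearly synchronous over the back. In growth, matrix cells at the base of the follicle divide around a cluster of specialised fibroblasts, the dermal papilla, and their daughters become the hair shaft or the inner root sheath that moulds it, while follicle melanocytes supply pigment. The question of the comparison is which RNAs set skin in the second growth phase apart from skin at rest. The labels give ages and not the stage of the follicles.

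The spacing of the lowest values gave a depth of about 38900000 fragments at day 28 and 40700000 fragments at day 19, so that 3 fragments on a transcript of 1 kb are worth 0.0771 FPKM at day 28 and 0.0736 FPKM at day 19. These floors cover counting error only. Both libraries held RNA of the Y-linked gene Ddx3y, with 16.5 FPKM at day 28 against 15.8 FPKM at day 19. Xist, made by female cells, had 0.166 FPKM at day 28 against 12.4 FPKM at day 19. The library at day 19 thus held Y-linked RNA and Xist together. An exact 0 in these files can be a failed estimate: Col3a1, a main collagen of skin, had 3141 FPKM at day 28 and was listed at 0 at day 19. Col1a1 was listed at 0 in both. Of the genes compared, 34 were listed at 0 in 1 library, 28 at day 19 and 6 at day 28. No fold is given for them, but all 34 are in the counts of genes called and in the list medians.

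A gene was called where log2(FPKM + 1) differed by at least 1, that is 2-fold, which understates the change of genes with low values. All differences, also those in brackets after a pair of values, are day 28 minus day 19 on that scale. By this rule 1062 genes, or 7.78%, were higher at day 28, and 1210 genes, or 8.87%, were lower. The median difference over all 13649 genes was -0.02, with quartiles at -0.45 and 0.38. The 2 directions differed in size. At 4-fold or more there were 403 higher and 90 lower genes, at 8-fold 211 higher and 9 lower, and at 32-fold 104 higher and 1 lower. The split depended on the scale. Keratin and keratin-associated protein genes held 8.09% of the summed FPKM of protein-coding genes at day 28 and 1.58% at day 19. With both libraries scaled to the coding genes other than these, 858 genes were higher and 1620 lower, and the median over all genes shifted to -0.19. With 5 FPKM instead of 1 added before the logarithm, 622 genes were higher and 411 lower.

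**Figure D1:**
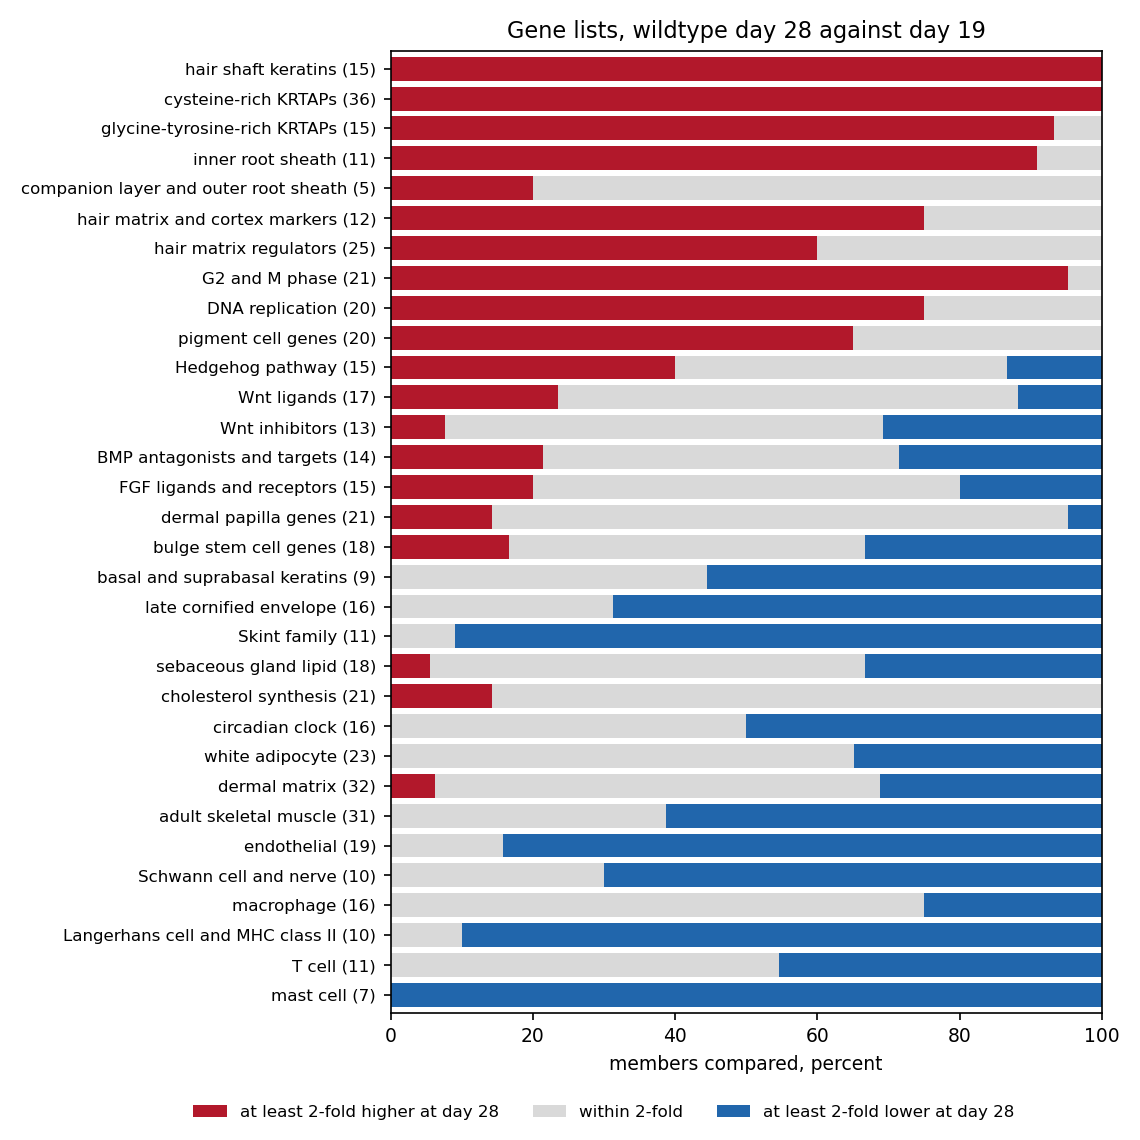
Percent of the members compared in each of 32 gene lists that were at least 2-fold higher (red), within 2-fold (grey) or at least 2-fold lower (blue) in wildtype skin at day 28 against day 19, with 1 library a side and the number of members compared in brackets. Red fills the bars of hair shaft keratins (15 of 15) and cysteine-rich keratin-associated proteins (36 of 36), and blue fills that of mast cell genes (7 of 7).

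The hair shaft was the largest difference between the libraries. Hair shaft keratins, the cysteine-rich intermediate filament proteins that fill the cortex and cuticle of the hair, were higher at day 28 for 15 of 15 members, with a median difference of 6.88. Their median level was 343 FPKM at day 28 and 2.17 FPKM at day 19. Together they held 0.879% of the coding FPKM at day 28 and 0.00894% at day 19. In a bulk sample, fewer cells of a type and less RNA per cell cannot be told apart. The cortex keratin Krt31 had 343 FPKM at day 28 against 0.915 FPKM at day 19, a difference of 7.49. Krt33a, also of the cortex, had 681 FPKM at day 28 against 2.51 FPKM at day 19. Krt83 had 679 FPKM at day 28 against 2.17 FPKM at day 19 (7.74). Among the 15, the cuticle keratin Krt82 had 53.5 FPKM at day 28 against 0.225 FPKM at day 19, and Krt35, one of the earliest hair keratins above the matrix, had 309 FPKM at day 28 against 0.738 FPKM at day 19. Krt84 (21.8 FPKM at day 28 against 5.89 FPKM at day 19) and Krt36 (25.1 FPKM at day 28 against 3.41 FPKM at day 19) had the smallest differences, at 1.73 and 2.56.

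Hair keratin filaments are embedded in keratin-associated proteins (KRTAPs), of which one group is rich in cysteine and another in glycine and tyrosine. All 36 cysteine-rich KRTAPs compared were higher at day 28, by 2.87 to 8.09, with a median of 5.44. Krtap15 had 1320.1 FPKM at day 28 against 3.84 FPKM at day 19, which at 8.09 was the largest difference of any gene that is neither a predicted gene nor listed at 0. Krtap14 had 436 FPKM at day 28 against 0.614 FPKM at day 19, and Krtap11-1 had 744 FPKM at day 28 against 2.98 FPKM at day 19. The glycine-tyrosine-rich genes held more of the signal, 3.27% of the coding FPKM at day 28 and 0.0534% at day 19. Krtap22-2 had 3914 FPKM at day 28 against 82.7 FPKM at day 19, the largest gain in FPKM among the named genes. Krtap8-1 had 3634 FPKM at day 28 against 33.4 FPKM at day 19, and Krtap7-1 had 3089 FPKM at day 28 against 25 FPKM at day 19. Of these KRTAPs 14 of 15 were higher, with a median of 5.6. The exception was Krtap20-2, with 2.23 FPKM at day 28 against 3.96 FPKM at day 19. Its value at day 16 was 46.1 FPKM. KRTAP genes within a family are nearly identical copies, so the value of a single one is uncertain where reads could be split between copies.

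Of the 56 KRTAP genes compared, 51 lie in 3 clusters (mm10, GENCODE M21 gene models), and the others, 3 on chromosome 10 and 2 on chromosome 1, were all higher. On chr11:99550130-99993994, 38 of 38 protein-coding genes compared were higher at day 28. On chr7:142174535-142304594, 10 of 10 were higher. The cluster on chr16:88610705-89571183, which holds the glycine-tyrosine-rich genes, had 26 higher and 3 lower of 32. Over the 3 clusters, 29 of the 80 genes compared carry only predicted names, and 24 of those were higher. One of them, Gm10229, had 1596 FPKM at day 28 against 23.5 FPKM at day 19.

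The members move together, so their promoters are shown. The windows of 300 bases (250 before to 50 after the RefSeq start, GRCm38.p6, the build also called mm10) of Krt31 at chr11:100050502-100050801, Krt71, a keratin of the inner root sheath, at chr15:101743048-101743347, and Krtap8-1 at chr16:89487903-89488202, all on the minus strand, read 5′ to 3′ as follows, with capitals marking 2 motifs on either strand. The first is the TATA box, searched as TATAAA. The second is the motif of TCF/LEF factors, searched as CTTTGAA and also with the other ending, as CTTTGTT.
Krt31: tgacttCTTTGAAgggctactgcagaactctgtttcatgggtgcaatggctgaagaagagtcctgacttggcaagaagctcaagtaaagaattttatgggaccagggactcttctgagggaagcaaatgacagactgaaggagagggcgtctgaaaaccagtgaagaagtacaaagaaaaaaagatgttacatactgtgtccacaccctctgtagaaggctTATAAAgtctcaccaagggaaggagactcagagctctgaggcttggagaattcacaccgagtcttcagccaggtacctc
Krt71: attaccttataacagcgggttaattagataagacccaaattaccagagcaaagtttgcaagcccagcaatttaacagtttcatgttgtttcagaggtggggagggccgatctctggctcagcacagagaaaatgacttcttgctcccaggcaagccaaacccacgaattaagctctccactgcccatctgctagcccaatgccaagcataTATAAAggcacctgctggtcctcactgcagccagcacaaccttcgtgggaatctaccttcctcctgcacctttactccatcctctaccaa
Krtap8-1: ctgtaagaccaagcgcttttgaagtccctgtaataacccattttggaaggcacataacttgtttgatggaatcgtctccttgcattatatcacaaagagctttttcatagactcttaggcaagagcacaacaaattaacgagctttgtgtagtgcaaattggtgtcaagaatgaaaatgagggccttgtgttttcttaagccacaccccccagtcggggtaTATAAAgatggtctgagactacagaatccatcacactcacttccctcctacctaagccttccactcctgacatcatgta
The TATAAA word starts at position -29 from the start site in Krt31 and Krtap8-1 and at -40 in Krt71. Promoters were counted by gene symbol, and a symbol holds a word if any of its windows does. Of the 55 hair shaft keratin and KRTAP symbols with a RefSeq promoter, 43 (78.2%) hold TATAAA on either strand. The share is 10.1% for the 10614 symbols of compared genes with a promoter and 15.7% for all 27025 symbols. For the inner root sheath genes the count is 7 of 11. The TCF/LEF word is in 16 of the 55 (29.1%), among them 5 of 9 keratins and 1 of 14 glycine-tyrosine-rich KRTAPs, against 8.96% of the compared genes and 12.1% of all symbols. A match is a description of these letters in this window only.

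The inner root sheath, the layered tube that surrounds the growing shaft, was higher too, for 10 of 11 genes (median 6.29). Its keratin Krt71 had 2466 FPKM at day 28 against 28.6 FPKM at day 19, Krt25 had 1643 FPKM at day 28 against 14.7 FPKM at day 19, and Krt27 had 1514 FPKM at day 28 against 25.5 FPKM at day 19. Tchh, trichohyalin, which hardens the sheath and the medulla, had 2076 FPKM at day 28 against 34.1 FPKM at day 19 and was listed at 0 at day 16. Krt73 had the largest difference of the list, 6.94, with 351 FPKM at day 28 against 1.87 FPKM at day 19. The transcription factor Gata3, which is needed for this layer but is also made in epidermis, was within 2-fold, with 33.7 FPKM at day 28 against 26.6 FPKM at day 19.

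The layers outside the inner root sheath differed less. Krt75, the keratin of the companion layer, was higher, with 179 FPKM at day 28 against 13.6 FPKM at day 19 (3.63). The outer root sheath keratins Krt17 (812 FPKM at day 28 against 505 FPKM at day 19) and Krt6a (96.8 FPKM at day 28 against 99.3 FPKM at day 19) were within 2-fold, and Krt16 had 9.77 FPKM at day 28 against 19.2 FPKM at day 19. Of 5 genes compared in this list, 1 was called, against 16.6% over all genes.

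Some enzymes that harden hair proteins were higher as well. The peptidylarginine deiminases Padi3, Padi1 and Padi4, which convert arginine to citrulline in trichohyalin and other proteins, had 121, 31.1 and 26.3 FPKM at day 28, against 1.17, 0.676 and 3.76 FPKM at day 19. The transglutaminase Tgm3 had 23.4 FPKM at day 28 against 2.39 FPKM at day 19, whereas the epidermal transglutaminase Tgm5 was lower, with 10.2 FPKM at day 28 against 26.7 FPKM at day 19. In all, 5 of 9 members of this list were higher and 1 lower. The higher members include Selenbp1, which is neither a deiminase nor a transglutaminase, with 94.5 FPKM at day 28 against 19.5 FPKM at day 19.

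**Figure D2:**
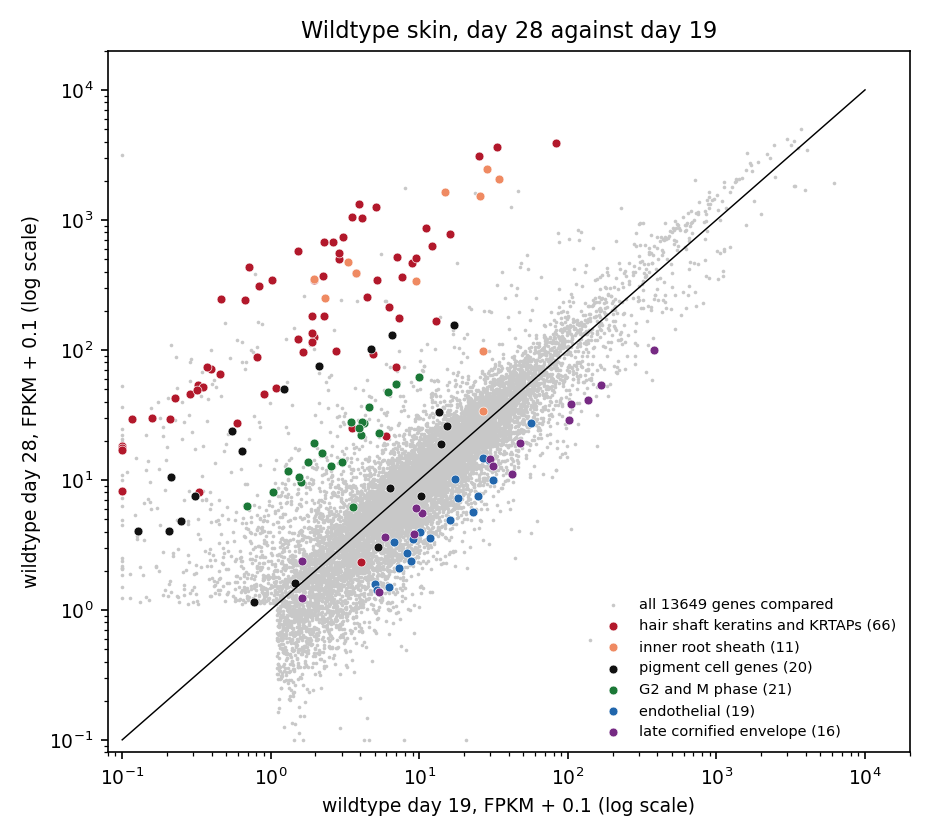
FPKM + 0.1 of the 13649 protein-coding genes compared in wildtype skin at day 28 (vertical, log scale) against day 19 (horizontal, log scale), 1 library each, with the line of equal values. Inner root sheath and cell division genes lie above the line, as do the hair shaft genes other than Krtap20-2 and most pigment genes, endothelial genes lie below it, and the late cornified envelope genes lie below it with Lce1g as the exception.

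Markers of the cells that build the shaft gave 9 of 12 higher genes and none lower, with a median of 3.53. S100a3, a calcium-binding protein of the hair cuticle, had 1767 FPKM at day 28 against 7.93 FPKM at day 19, and at 7.63 it had the largest difference of any named gene outside the keratins and KRTAPs that is not listed at 0. Gprc5d, a receptor of unknown ligand found in hard keratinised tissue, had 261 FPKM at day 28 against 1.58 FPKM at day 19. Crym had 238 FPKM at day 28 against 3.72 FPKM at day 19 and Psors1c2 had 547 FPKM at day 28 against 5.45 FPKM at day 19. Dsg4, the desmoglein that joins cells of the shaft, had 61.3 FPKM at day 28 against 2.35 FPKM at day 19. Ctsl, Lpar6 and Liph, which also affect hair when mutated, were within 2-fold. Outside these lists, Vsig8 (160.3 FPKM at day 28 against 0.392 FPKM at day 19), Lyg2 (109.6 FPKM at day 28 against 0.113 FPKM at day 19), Cryba4 (119 FPKM at day 28 against 0.496 FPKM at day 19) and Calhm4 (80.6 FPKM at day 28 against 0.187 FPKM at day 19) were among the 15 largest differences of genes other than keratins and KRTAPs. Fbp1, a gluconeogenic enzyme, had 86.2 FPKM at day 28 against 0.434 FPKM at day 19, and Gjb2, a gap junction protein, had 239 FPKM at day 28 against 5.73 FPKM at day 19.

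The transcription factors that direct the hair matrix were higher for 15 of 25 compared, with none lower and a median of 1.68. Hoxc13, which activates hair keratin genes, had 32.7 FPKM at day 28 against 3.04 FPKM at day 19 (3.06). Foxn1, mutated in nude mice, had 17.4 FPKM at day 28 against 1.36 FPKM at day 19. The homeobox genes Dlx3, Msx2 and Msx1 had 97.8, 35.9 and 12.9 FPKM at day 28, against 7.22, 2.32 and 0.743 FPKM at day 19. Lef1, the Wnt pathway's DNA-binding partner in matrix and precortex, had 30.1 FPKM at day 28 against 2.69 FPKM at day 19 (3.07). Elf5, with 25.3 FPKM at day 28 against 1.17 FPKM at day 19, had the largest difference of the list, at 3.6. Dlx4 had 8.19 FPKM at day 28 against 0.0936 FPKM at day 19, values worth about 664 and 7.9 fragments. Cux1, Dlx1, Dlx2, Ovol1, Sox21, Foxe1 and Foxq1 were also higher.

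The other 10 matrix regulators compared were within 2-fold. Klf4, a regulator of the epidermal barrier, had 69.8 FPKM at day 28 against 98 FPKM at day 19. The hairless corepressor Hr had 48.7 FPKM at day 28 against 79.2 FPKM at day 19, and the vitamin D receptor Vdr had 45.8 FPKM at day 28 against 23.2 FPKM at day 19. Runx1 had 10.7 FPKM at day 28 against 10.5 FPKM at day 19. Over a list of 35 genes whose mutation causes hair loss or abnormal hair in mice or people, many of them also in the lists above, 19 were higher and none lower, with a median of 1.4. Fgf5, which ends the growth phase and whose loss gives long hair, was among them, with 2.74 FPKM at day 28 against 0.418 FPKM at day 19.

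Pigment genes were higher for 13 of 20 members, with a median of 2.29 and none lower. Tyrosinase (Tyr), the rate-limiting enzyme of melanin synthesis, had 23.8 FPKM at day 28 against 0.445 FPKM at day 19 (4.1). The other 2 melanin enzymes, Tyrp1 and Dct, had 101 and 155 FPKM at day 28, against 4.62 and 17 FPKM at day 19. Pmel, which forms the fibrils of the melanosome, had 130.1 FPKM at day 28 against 6.41 FPKM at day 19, and Mlana, with 75.4 FPKM at day 28 against 2.01 FPKM at day 19, had the largest difference of the list (4.67). The melanosome transporters Oca2, Slc24a5 and Slc45a2 were higher by 3.37, 3.52 and 2.8. Mc1r, the receptor for melanocyte-stimulating hormone, had 3.92 FPKM at day 28 against 0.0277 FPKM at day 19.

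The other 7 members were within 2-fold. Among these, Mitf, the lineage's master regulator, had 25.8 FPKM at day 28 against 15.3 FPKM at day 19, Kit had 8.49 FPKM at day 28 against 6.25 FPKM at day 19, Pax3 had 1.04 FPKM at day 28 against 0.666 FPKM at day 19, and Sox10, which is also made in Schwann cells, had 2.93 FPKM at day 28 against 5.21 FPKM at day 19. The remaining members within 2-fold were Mlph, Rab27a and Rab38, which act in melanosome transport and assembly. Ednrb, the endothelin receptor of the lineage, was among those that were higher, with 33.1 FPKM at day 28 against 13.4 FPKM at day 19. Among signals to melanocytes, Kitl, the ligand of Kit, had 19.8 FPKM at day 28 against 13.1 FPKM at day 19, Edn3 had 2.46 FPKM at day 28 against 1.14 FPKM at day 19, and Edn2 was the 1 of 5 that was higher, with 3.8 FPKM at day 28 against 0.741 FPKM at day 19. The share called over all genes was 16.6%.

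Cell division genes were higher. Of the genes of G2 and M phase, 20 of 21 were higher, by 0.65 to 2.82 over the list, with a median of 2.44. Cdk1, the kinase that drives entry into mitosis, had 55 FPKM at day 28 against 6.91 FPKM at day 19 (2.82), and its cyclin partner Ccnb2 had 19.1 FPKM at day 28 against 1.85 FPKM at day 19 (2.82). Mki67, the Ki-67 antigen of cycling cells, had 47.4 FPKM at day 28 against 6.06 FPKM at day 19, and Birc5, survivin, had 28 FPKM at day 28 against 3.36 FPKM at day 19. The exception was the spindle checkpoint kinase Ttk, with 6.05 FPKM at day 28 against 3.49 FPKM at day 19. DNA replication genes differed less, with 15 of 20 higher and a median of 1.28. The helicase subunit Mcm5 had 20.8 FPKM at day 28 against 5.85 FPKM at day 19, and Pcna, just short of 2-fold at 0.97, had 71.9 FPKM at day 28 against 36.2 FPKM at day 19. With 5 FPKM added before the logarithm, 7 replication genes were past 2-fold in place of 15, and with both libraries scaled to ribosomal protein genes 3 were. Histone genes, whose RNA is made in S phase, were added after their values were seen: 61 of 63 were higher (median 2.56), for example the linker histone Hist1h1a with 401 FPKM at day 28 against 35.7 FPKM at day 19. Histone gene copies share sequence, so single values are uncertain.

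The promoters of Cdk1 (chr10:69352863-69353162, minus strand) and Ccnb2 (chr9:70421505-70421804, minus strand) are shown from the same RefSeq windows because both hold the words that recur over the list. Capitals mark the CHR element of cell cycle genes, searched as TTTGAA, and the CCAAT box, both on either strand. A CCAAT box on the opposite strand reads ATTGG.
Cdk1: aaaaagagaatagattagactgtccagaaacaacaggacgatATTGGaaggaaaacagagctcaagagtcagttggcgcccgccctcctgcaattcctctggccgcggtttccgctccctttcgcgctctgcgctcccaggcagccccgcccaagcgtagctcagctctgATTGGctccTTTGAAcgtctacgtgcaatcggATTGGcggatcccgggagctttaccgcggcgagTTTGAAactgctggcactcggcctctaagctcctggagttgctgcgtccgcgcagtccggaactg
Ccnb2: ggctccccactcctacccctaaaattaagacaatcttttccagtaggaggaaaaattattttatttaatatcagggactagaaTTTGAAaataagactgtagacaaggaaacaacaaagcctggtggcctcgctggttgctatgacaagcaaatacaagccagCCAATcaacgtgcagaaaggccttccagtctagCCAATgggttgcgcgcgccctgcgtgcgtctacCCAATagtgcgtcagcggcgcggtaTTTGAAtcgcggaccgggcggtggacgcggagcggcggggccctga
Of 18 G2 and M phase promoters in the table, counted by symbol as before, 13 (72.2%) hold TTTGAA and 16 (88.9%) hold CCAAT. The shares among the compared genes are 14.7% and 42.5%. Of 16 DNA replication promoters, 3 hold TTTGAA and 11 hold CCAAT. None of the 18 holds TATAAA. The CHR letters are contained in the first TCF/LEF motif, and 8 of 9 hair shaft keratin promoters hold it as well.

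Hedgehog signalling, which drives matrix growth, had both higher and lower members, 6 and 2 of 15. The ligand Shh had 3.61 FPKM at day 28 against 0.0261 FPKM at day 19, about 372 and 2.8 fragments, so its value at day 19 was at the floor of 3 fragments. The receptor Ptch1 and the effector Gli1, both induced by the pathway itself, had 20.8 and 8.63 FPKM at day 28, against 9.18 and 3.53 FPKM at day 19. Hhip, an induced inhibitor that binds the ligand, had 4.74 FPKM at day 28 against 0.845 FPKM at day 19. The coreceptors Gas1 and Cdon, which are reduced by the pathway in other tissues, were lower, with 12.2 and 7.09 FPKM at day 28, against 35.5 and 19.3 FPKM at day 19. Gli3 (10.9 FPKM at day 28 against 4.88 FPKM at day 19) was higher, and Gli2 (3.95 FPKM at day 28 against 4.12 FPKM at day 19) and Smo (28.1 FPKM at day 28 against 25.9 FPKM at day 19) were close to equal.

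Wnt ligands split by gene. Wnt10b, made by the follicle epithelium at the onset of growth, had 9.46 FPKM at day 28 against 2.96 FPKM at day 19. Wnt5a had 18.6 FPKM at day 28 against 6.5 FPKM at day 19, Wnt11 had 15.9 FPKM at day 28 against 5.53 FPKM at day 19, and Rspo2, an amplifier of Wnt signalling, had 1.32 FPKM at day 28 against 0.0945 FPKM at day 19. Wnt7b (3.32 FPKM at day 28 against 10.7 FPKM at day 19) and Wnt16 (0.706 FPKM at day 28 against 4.51 FPKM at day 19) were lower. Of 17 ligands compared, 4 were higher and 2 lower. Among receptors, Fzd10 (22.2 FPKM at day 28 against 7.24 FPKM at day 19) and Fzd5 (9.16 FPKM at day 28 against 3.09 FPKM at day 19) were higher, Lgr6 was lower (3.58 FPKM at day 28 against 8.55 FPKM at day 19), and the other 13 of 16 were within 2-fold, a share near that over all genes.

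Secreted Wnt inhibitors were more often lower, 4 of 13 against 1 higher. Dkk2 had 2.17 FPKM at day 28 against 11 FPKM at day 19, Dkk3 had 9.79 FPKM at day 28 against 27 FPKM at day 19, Sfrp4 had 5.37 FPKM at day 28 against 12.8 FPKM at day 19, and Sfrp5 had 0.509 FPKM at day 28 against 2.5 FPKM at day 19. Wif1 was the 1 that was higher, with 17.3 FPKM at day 28 against 3.12 FPKM at day 19. The targets of the pathway did not move as a block. Axin2, the target used most often as a reporter, had 13.4 FPKM at day 28 against 17.9 FPKM at day 19, within 2-fold, while Lef1, Ccnd1 (53.2 FPKM at day 28 against 15.3 FPKM at day 19), Bambi (14 FPKM at day 28 against 1.23 FPKM at day 19), Nkd2 and Tcf7 were higher and Twist1 was lower (5.96 FPKM at day 28 against 17.1 FPKM at day 19).

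BMP signals hold follicles at rest and later direct shaft differentiation. The ligands Bmp2 (6.52 FPKM at day 28 against 7.86 FPKM at day 19) and Bmp4 (13.7 FPKM at day 28 against 14 FPKM at day 19) were within 2-fold, as were the receptors. Bmp8a had 5.94 FPKM at day 28 against 0.0717 FPKM at day 19, and Bmp3 was lower, with 1.31 FPKM at day 28 against 4.68 FPKM at day 19. The induced inhibitors of the pathway were higher, with 11.5, 7.47 and 14 FPKM for Smad7, Smad6 and Bambi at day 28, against 2.98, 2.74 and 1.23 FPKM at day 19. Secreted antagonists were lower, with Grem1 at 2.21 FPKM at day 28 against 14.3 FPKM at day 19, Chrdl1 at 5.93 FPKM at day 28 against 15.3 FPKM at day 19 and Fst at 17.9 FPKM at day 28 against 39.6 FPKM at day 19, whereas Nog and Chrd were within 2-fold. The target genes Id1, Id2 and Id3 were within 2-fold. In the FGF family, 3 of 15 genes were higher and 3 lower. Fgf22 had 16.7 FPKM at day 28 against 2.91 FPKM at day 19, and Fgf18, which keeps follicles at rest, was lower, with 0.927 FPKM at day 28 against 3.07 FPKM at day 19. Fgf7 (6.25 FPKM at day 28 against 7.87 FPKM at day 19) and Fgf10 (1.54 FPKM at day 28 against 1.79 FPKM at day 19), dermal papilla signals, were within 2-fold. In the Eda pathway, 1 of 7 genes was called (Nfkbia, 20.9 FPKM at day 28 against 47.7 FPKM at day 19), near the share over all genes. In the Notch pathway 10 of 12 genes were within 2-fold, a share near that over all genes, with Heyl higher (7.15 FPKM at day 28 against 2.85 FPKM at day 19) and Hey1 lower (1.37 FPKM at day 28 against 4.26 FPKM at day 19).

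**Figure D3:**
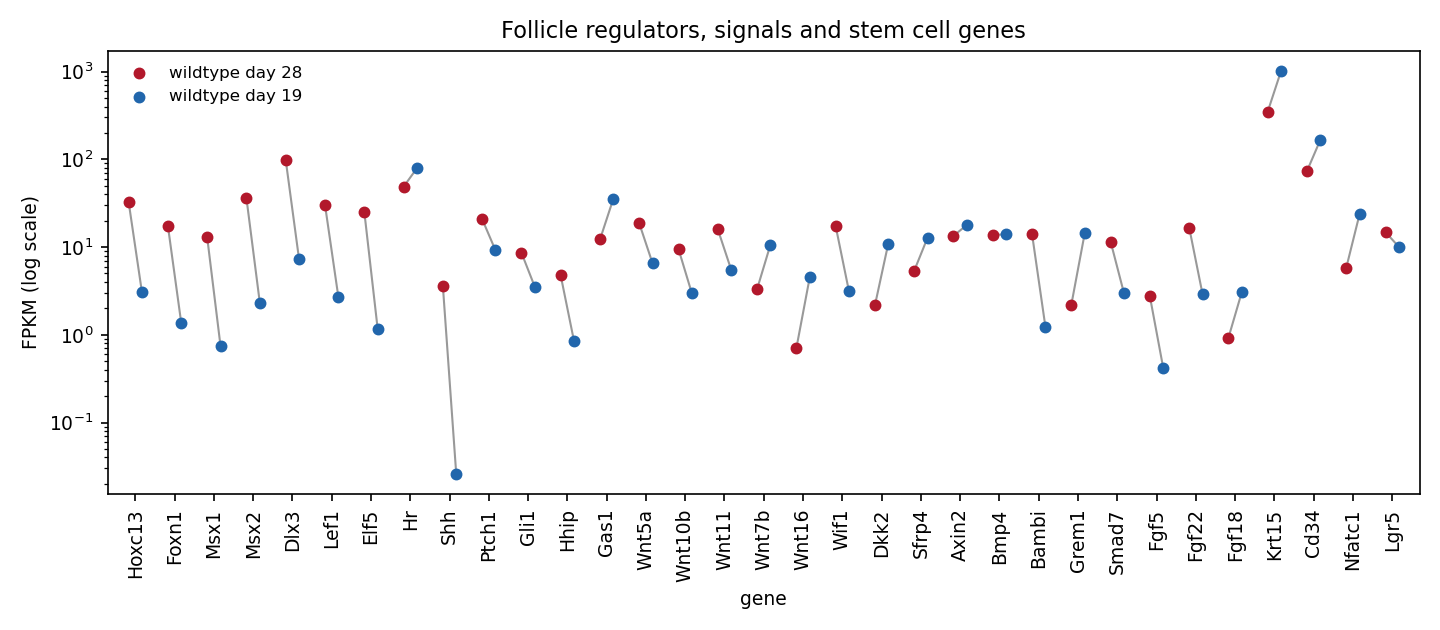
FPKM (log scale) of follicle regulators, signals and stem cell genes in wildtype skin at day 28 (red, left of each pair) and day 19 (blue, right), 1 library each. The matrix regulators at the left and Shh are higher at day 28, Hr, Gas1, Dkk2, Grem1, Krt15, Cd34 and Nfatc1 are higher at day 19, and Bmp4 and Axin2 lie close together.

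Genes of bulge stem cells, which sit in the resting follicle, were lower for 6 of 18 and higher for 3. Nfatc1, which keeps these cells quiescent, had 5.84 FPKM at day 28 against 23.9 FPKM at day 19 (-1.86). Krt15 had 350.2 FPKM at day 28 against 1018 FPKM at day 19, Cd34 had 73.7 FPKM at day 28 against 167 FPKM at day 19, and the hemidesmosomal collagen Col17a1 had 52.8 FPKM at day 28 against 183 FPKM at day 19. Sox9 (16.7 FPKM at day 28 against 18.2 FPKM at day 19), Lhx2 (13.8 FPKM at day 28 against 10.7 FPKM at day 19) and Lgr5 (14.8 FPKM at day 28 against 10.03 FPKM at day 19) were within 2-fold. Tbx1, Hopx and Gli1 were higher. Krt15 and Col17a1 are also made by basal epidermal cells and Cd34 by vessels, whose lists are given below. Dermal papilla genes were mostly within 2-fold, with 3 of 21 higher, Wif1 and Hhip among them, and 1 lower (Prom1, 0.407 FPKM at day 28 against 2.66 FPKM at day 19). The share called was near that over all genes, 16.6%. Corin, a papilla protease, had 2.26 FPKM at day 28 against 1.67 FPKM at day 19, Alpl had 2.58 FPKM at day 28 against 2.2 FPKM at day 19, and Vcan, the proteoglycan versican, had 28.7 FPKM at day 28 against 21.7 FPKM at day 19.

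Many genes of the interfollicular epidermis went the other way. Of basal and suprabasal keratins, 5 of 9 were lower and none higher, with a median of -1.39. The suprabasal keratins Krt10, Krt1 and Krt77 had 406, 82.1 and 373 FPKM at day 28, against 1107, 218 and 1109 FPKM at day 19. The basal keratins Krt14 (619.7 FPKM at day 28 against 618 FPKM at day 19) and Krt5 (712 FPKM at day 28 against 831 FPKM at day 19), which the outer root sheath also makes, were close to equal. Late cornified envelope genes, expressed in the last living layers, were lower for 11 of 16 compared (median -1.26), for example Lce1m with 99.2 FPKM at day 28 against 381 FPKM at day 19. Loricrin (Lor), the main protein of the cornified envelope, had 51.8 FPKM at day 28 against 156 FPKM at day 19, and Krtdap, which had the largest loss in FPKM, had 1907 FPKM at day 28 against 6162 FPKM at day 19. Not all barrier genes were lower. Flg, filaggrin, had 195 FPKM at day 28 against 89.1 FPKM at day 19, Cnfn had 119 FPKM at day 28 against 26.6 FPKM at day 19, and Sprr1b had 10.5 FPKM at day 28 against 0.243 FPKM at day 19. Over the epidermal differentiation complex on chr3:92080271-93471980, 17 of 36 genes compared were lower and 9 higher. The higher genes there are not all barrier genes. They include Tchh and Tchhl1 of the inner root sheath list, with differences of 5.89 and 5.01. Prr9 (5.14) and Crnn (5.96) are also among them.

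Epidermal lipid enzymes were lower for 6 of 15, among them Alox12b (5.57 FPKM at day 28 against 20.5 FPKM at day 19) and Aloxe3 (4.18 FPKM at day 28 against 13.3 FPKM at day 19), lipoxygenases of the ceramide barrier, and 1, Pnpla1, was higher. The Skint family, proteins of epidermis and thymus that shape dendritic epidermal T cells, was lower for 10 of 11 (median -1.48), with Skint11 at 4.9 FPKM at day 28 against 19.9 FPKM at day 19. With 5 FPKM added before the logarithm, 6 of the Skint genes were past 2-fold. The keratinocyte chemokine Ccl27a, taken up after its values were seen, had 229.8 FPKM at day 28 against 806 FPKM at day 19.

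Sebaceous and fat genes were lower in part. Of sebaceous lipid genes, 6 of 18 were lower and 1, Elovl3, was higher (43.8 FPKM at day 28 against 12.1 FPKM at day 19). Awat2, a wax synthase of the gland, had 15.5 FPKM at day 28 against 64.8 FPKM at day 19. Of white fat genes, 8 of 23 were lower and none higher, with Cidec, a lipid droplet protein, at 25.1 FPKM at day 28 against 96.3 FPKM at day 19 and Pnpla2, the first lipase of fat breakdown, at 26.9 FPKM at day 28 against 95 FPKM at day 19. Fabp4 (470.4 FPKM at day 28 against 663 FPKM at day 19) and Adipoq (69.7 FPKM at day 28 against 137 FPKM at day 19), which also mark fat cells, were within 2-fold, Adipoq just short of it. Of the 23 white fat genes, 20 had a lower value at day 28, and the median difference was -0.79. Cholesterol synthesis genes leaned the other way, at a median of 0.62, near the 0.63 of ribosomal protein genes. Of 21 genes, 3 passed 2-fold, against 16.6% called over all genes. Among the 3 were Insig1 (64.4 FPKM at day 28 against 17.9 FPKM at day 19) and Idi1 (32.9 FPKM at day 28 against 15.2 FPKM at day 19).

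Genes of vessels were lower for 16 of 19 endothelial members, with a median of -1.34. Pecam1, an adhesion protein of all endothelium, had 9.96 FPKM at day 28 against 31.2 FPKM at day 19, and the tight junction protein Cldn5 had 5.58 FPKM at day 28 against 22.7 FPKM at day 19. Vegfa, the growth factor, was within 2-fold, with 14.5 FPKM at day 28 against 26.8 FPKM at day 19. All 19 had a lower value at day 28, at medians of 3.85 FPKM at day 28 and 11.7 FPKM at day 19. At these low levels the rule was sensitive to its scale, and with 5 FPKM added before the logarithm 4 members were past 2-fold. Schwann cell and nerve genes were lower for 7 of 10, with the myelin gene Mbp at 12.7 FPKM at day 28 against 58.7 FPKM at day 19. Erbb3 (26.1 FPKM at day 28 against 28.7 FPKM at day 19), also made by keratinocytes, was within 2-fold.

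Dermal matrix genes were lower for 10 of 32, led by Eln, elastin, with 31.4 FPKM at day 28 against 158 FPKM at day 19 (-2.29). The elastic fibre genes Mfap4 (89.3 FPKM at day 28 against 285 FPKM at day 19) and Fbln1 (11.7 FPKM at day 28 against 36.4 FPKM at day 19) were lower with it. The fibrillar collagen gene Col1a2 had 3575 FPKM at day 28 against 3535 FPKM at day 19, and Sparc had 2139.5 FPKM at day 28 against 2487 FPKM at day 19, both close to equal. Col12a1 was higher (25 FPKM at day 28 against 10.1 FPKM at day 19), and the other gene counted as higher is Col3a1, listed at 0 at day 19. Of basement membrane genes, 5 of 17 were lower, among them Col17a1, Lamb3 (9.68 FPKM at day 28 against 32.3 FPKM at day 19) and Col7a1 (7.62 FPKM at day 28 against 24.7 FPKM at day 19), and none was higher. Of smooth muscle and pericyte genes, 6 of 13 were lower, with Myh11 at 5.86 FPKM at day 28 against 28.4 FPKM at day 19, and Tagln was higher (55.3 FPKM at day 28 against 20.4 FPKM at day 19).

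Skeletal muscle lies beneath the skin and was present in both libraries. Its genes were lower for 19 of 31, with a median of -1.12 and median levels of 38.9 FPKM at day 28 and 106 FPKM at day 19. Myh4, a fast myosin, had 144 FPKM at day 28 against 526 FPKM at day 19, and Ckm, muscle creatine kinase, had 355 FPKM at day 28 against 894 FPKM at day 19. The slow myosin genes Myl2 and Myh7 were both listed at 0 at day 28, against 20.4 and 7.74 FPKM at day 19. Haemoglobin genes were lower as well, for 4 of 6 erythroid genes, with Hbb-bs at 184 FPKM at day 28 against 579.9 FPKM at day 19. The levels of muscle and blood genes move with the other lower lists, and their part in them was not tested.

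Immune cell genes were mostly lower or within 2-fold. All 7 mast cell genes compared were lower (median -2.07), with the proteases Cpa3 and Cma1 at 15.7 and 19.9 FPKM at day 28, against 91.2 and 92.5 FPKM at day 19. Of Langerhans cell and MHC class II genes, 9 of 10 were lower (median -1.57). Cd207, langerin, had 2.34 FPKM at day 28 against 12.8 FPKM at day 19, and Cd74, the invariant chain, had 109 FPKM at day 28 against 345 FPKM at day 19. With 5 FPKM added before the logarithm, 5 were past 2-fold. Macrophage genes were lower for 4 of 16, with Csf1r at 46.2 FPKM at day 28 against 128 FPKM at day 19 and C1qa within 2-fold at 57.5 FPKM at day 28 against 73 FPKM at day 19. T cell genes were lower for 5 of 11, with Cd3g at 3.47 FPKM at day 28 against 15 FPKM at day 19. None of the 6 B cell genes reached 1 FPKM. Of 4 neutrophil genes compared, 2 were lower, and S100a8, also made by keratinocytes, was higher, with 44.4 FPKM at day 28 against 7.64 FPKM at day 19. Ccl11, eotaxin, had 2.41 FPKM at day 28 against 43.8 FPKM at day 19.

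Genes that respond to the time of day or the state of the animal also differed. Of 16 circadian clock genes, 8 were lower and none higher, with a median of -1.04. Dbp, Per1 and Nr1d1, direct targets of the clock's activators, had 4.13, 5.38 and 6.09 FPKM at day 28, against 25.2, 20.4 and 22.2 FPKM at day 19. The activators Arntl (9.26 FPKM at day 28 against 9.09 FPKM at day 19) and Clock (9.16 FPKM at day 28 against 13.2 FPKM at day 19) were within 2-fold. The hour of sampling is not given in the labels, so age and time of day cannot be told apart here. With 5 FPKM added before the logarithm, 5 clock genes were past 2-fold. Immediate early genes were lower for 5 of 11, with Fos at 4.83 FPKM at day 28 against 25.4 FPKM at day 19.

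A list of genes raised by fasting and glucocorticoids, put together after values were seen, had 10 of 16 lower and none higher. Pdk4, which spares glucose, had 3.13 FPKM at day 28 against 29.5 FPKM at day 19, and Txnip had 67.6 FPKM at day 28 against 334 FPKM at day 19. Genes of xenobiotic metabolism, also listed after values were seen, gave 11 of 17 lower. Cyp2g1 had 0.491 FPKM at day 28 against 142 FPKM at day 19, the largest fall of any named gene (-6.58). Cyp1a1, induced by the aryl hydrocarbon receptor, had 4.05 FPKM at day 28 against 105 FPKM at day 19 (-4.39). Other large falls were Igfbp3 (18.2 FPKM at day 28 against 156 FPKM at day 19), Nnat (4.74 FPKM at day 28 against 61.6 FPKM at day 19) and Mmp11 (3.94 FPKM at day 28 against 46.5 FPKM at day 19), and the imprinted growth factor gene Igf2 had 2.93 FPKM at day 28 against 21.7 FPKM at day 19.

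Ribosomal protein genes were slightly higher, with a median of 0.63, 79 of 81 in that direction and 6 past 2-fold. That last share is near the 7.78% of all genes that were higher. When both libraries were scaled to these genes, the median over all genes moved to -0.56, with 591 genes higher and 2992 lower. The hair shaft, sheath, pigment and division lists kept positive medians under that scaling, while the small positive medians of Hedgehog, Eda, Wnt ligand, Wnt target and dermal papilla genes turned negative. Metallothioneins, which bind zinc and copper, were listed after values were seen. They were higher for 3 of 4, with Mt4, the epithelial form, at 1256 FPKM at day 28 against 41.3 FPKM at day 19 and Mt2 at 805 FPKM at day 28 against 122 FPKM at day 19. Glycolysis genes had 0 of 18 called.

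Levels at the earlier wildtype ages are given for reference. Hair shaft keratins had a median of 1.18 FPKM at day 0, 313 at day 16, 2.17 at day 19 and 343 at day 28, and for Krt31 these values were 1.74, 313, 0.915 and 343 FPKM. The keratins at day 28 thus stood near their level at day 16, late in the first growth phase by textbook timing. Pigment genes did not, with medians of 5.98, 3.13, 1.68 and 13.6 FPKM, and Tyr had 6.57, 1.16, 0.445 and 23.8 FPKM. Division genes were likewise lower at day 16 than at day 28, with medians for G2 and M phase of 17.9, 5.37, 3.36 and 19.1 FPKM. Krtap19-1 had 30.1 FPKM at day 16, 0.573 at day 19 and 241 at day 28. The keratin and KRTAP share of coding FPKM was 1.53% at day 0, 10.5% at day 16, 1.58% at day 19 and 8.09% at day 28. No test was possible on these single libraries.

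**Figure D4:**
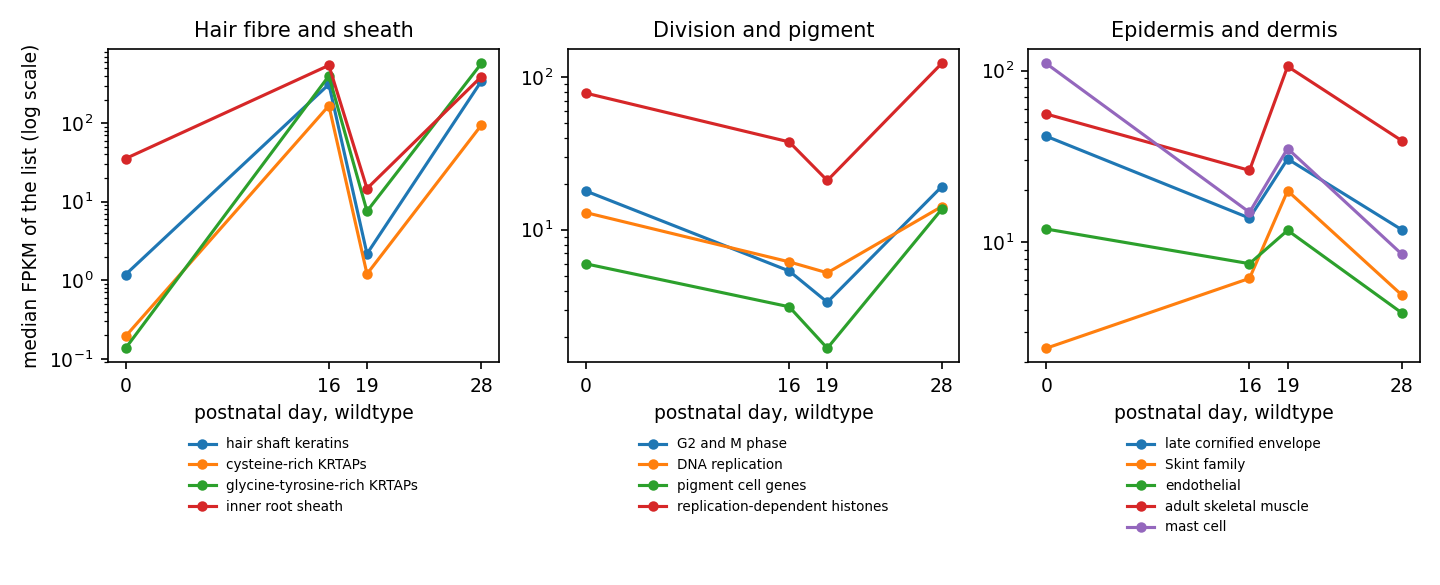
Median FPKM (log scale) of 13 gene lists in wildtype skin at postnatal days 0, 16, 19 and 28, 1 library per age. Hair fibre and sheath lists (left) are high at days 16 and 28, division and pigment lists (middle) are lowest at day 19 and highest at day 28, and in the right panel every list is lower at day 28 than at day 19.

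In hairloss skin the same step gave 429 genes higher (3.18%) and 537 lower (3.98%) of 13504 compared. The list values for hairloss skin are over the members compared in wildtype skin. Hair shaft keratins were lower there, 14 of 15 past 2-fold, at a median of -4.8. Krt31 had 0.0273 FPKM at day 28 and 33.3 FPKM at day 19. Genes of G2 and M phase were higher in both, 19 of 21 past 2-fold in hairloss skin at a median of 1.12. Of DNA replication genes, 4 of 20 were higher in hairloss skin (median 0.81), and of histone genes 8 of 63 were higher and 1 lower (median 0.54). Lef1 had 5.5 FPKM at day 28 and 3.09 FPKM at day 19 in hairloss skin. Endothelial genes differed little in hairloss skin (median -0.05, 1 of 19 higher and 0 lower), as did mast cell genes (median 0.27, 0 of 7 higher and 1 lower). The hairloss library at day 28 held 50.2 FPKM of Xist and Ddx3y at 0, and that at day 19 held 0.115 FPKM of Xist and 19.4 FPKM of Ddx3y, so the 2 differ in sex-linked RNA. The difference between the genotypes was not tested.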

How the data were processed

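Total RNA of skin was isolated with RNeasy columns and made into TruSeq libraries, per the labels' protocols. Per the submitters' processing notes, Cutadapt and Cuffdiff were used with build mm10 (no versions). Aligner, annotation release and strandedness: not given in the sources used here, so reads of a gene and an antisense partner cannot be told apart. The authors deposited 1 value per gene and library, which lacks a unit in the header and was read as FPKM because Cuffdiff is named and the values fit that unit. They hold no counts, so no count test was used, and 1 library a side allowed no test at all. Groups come from the sample labels.

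Symbols, gene types and coordinates come from GENCODE M21 (same build), which held 55237 of the 55418 identifiers. Genes of at least 1 FPKM in either library were compared on log2(FPKM + 1), with a 2-fold size rule. How this rule holds up against the spread between animals was not tested. Depth was estimated from the lowest values of genes with 1 transcript over 1000 bases, with a fragment length of 200 assumed. The members and the 56 gene lists were chosen with earlier results of these data known, and 4 lists were added after values were seen, so no list is independent evidence. The rule for names took the 15 largest differences each way, the 10 largest gains and losses of FPKM, up to 6 members of each list, and sex-linked genes. It also allowed any member of the follicle, signal and clock lists, of which not all are named. Other members were named, after values were seen, where they define their list. Promoters are RefSeq windows matched by symbol, and 3026 of the 13640 symbols of compared genes had none. Alternatives changed the added constant, the minimum, the scaling and the gene types. Amino acid makeup was not analysed. Some list members are counted but not reported here by name. Python 3.11.15, numpy 2.4.6, pandas 2.3.3 and matplotlib 3.10.9 were used.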

Additional observations from a re-analysis of the deposited data

Results flagged for a closer look

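The 10 lists given here moved in opposite directions between days 19 and 28 in wildtype and hairloss skin, each with a median difference past 2-fold in both. These differences were not tested, since each median compares 1 library with 1 library. Both medians of a list are over the members with at least 1 FPKM in either wildtype library, with no separate minimum in hairloss skin. Values are day 28 minus day 19, and the hairloss library at day 28 holds Xist and no Y-linked RNA of Ddx3y, and that at day 19 the reverse. Hair shaft keratins had a median of 6.88 in wildtype and -4.8 in hairloss skin. Glycine-tyrosine-rich KRTAPs had 5.6 in wildtype and -5.54 in hairloss skin, and cysteine-rich KRTAPs had 5.44 in wildtype and -3.56 in hairloss skin. Inner root sheath genes had 6.29 in wildtype and -2.77 in hairloss skin. Matrix and cortex markers had 3.53 in wildtype and -1.41 in hairloss skin, and small proline-rich genes, of which only 4 of 15 were compared, had 1.31 in wildtype and -2.0 in hairloss skin. The other 4 lists were lower in wildtype and higher in hairloss skin. Late cornified envelope genes had -1.26 in wildtype and 1.03 in hairloss skin, brown fat genes had -1.09 and 1.0, skeletal muscle genes had -1.12 and 1.16, and erythroid genes had -1.49 and 1.28, wildtype before hairloss in each. Only 7 brown fat genes were compared, and both medians equal the values of Cidea, a gene that is also in the sebaceous list.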

How the results depend on the processing

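The main counts were 1062 higher and 1210 lower genes. Adding 0.1 FPKM before the logarithm gave 1307 higher and 1828 lower, and adding 5 gave 622 higher and 411 lower. At that setting 7 DNA replication, 6 Skint, 4 endothelial, 5 Langerhans cell and 5 circadian genes were past 2-fold. Scaling to ribosomal protein genes, an alternative chosen after seeing the data, gave 591 higher and 2992 lower, with 3 replication genes higher and 29 muscle genes lower. Scaling by the median ratio gave 1013 and 1294, a minimum of 5 FPKM gave 899 and 932 of 10452 genes, leaving out genes listed at 0 gave 1034 and 1204, and all gene types together gave 1338 and 1452 of 16546, higher before lower in each. Of 480 list values over 60 results, 415 were within 1.5 times the main count and 65 were not. No paired analysis was possible because each group holds 1 library and no test was made. Leaving out a replicate was not possible for the same reason. The planned amino acid makeup of the coding RNA was not run. With 1 library a side, the spread between animals, their sex, the body site and the hour of sampling limit every difference. The wildtype libraries differ in sex-linked RNA, with Xist at 0.166 FPKM at day 28 against 12.4 FPKM at day 19. Below about 0.0771 FPKM on 1 kb a value rests on 3 fragments or fewer.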

Other observations

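The genes given here were picked after their values were seen. Apart from Myc and Defb8, they differed by at least 2-fold between days 28 and 19 in wildtype skin. Defb8 was listed at 0 at day 19, so no fold is given for it. Gnmt, glycine N-methyltransferase, had 1.59 FPKM at day 0, 3.2 at day 16, 0.575 at day 19 and 70.8 at day 28 in wildtype skin, and 2.62 FPKM at day 28 in hairloss skin. Gal, the neuropeptide galanin, had 6.48 FPKM at day 28 against 0.0402 FPKM at day 19. Defb8, a beta-defensin gene, had 52.2 FPKM at day 28 and was listed at 0 in the 3 other wildtype libraries and in hairloss skin at days 19 and 28. Mycn, a growth regulator related to Myc, had 14.5 FPKM at day 28 against 1.28 FPKM at day 19, while Myc had 13.8 FPKM at day 28 against 10.4 FPKM at day 19. Enzymes of sulphur and amino acid use were higher too, with Cth, which makes cysteine, at 12.6 FPKM at day 28 against 1.14 FPKM at day 19, Ggt1, which releases it from glutathione, at 23.3 FPKM at day 28 against 0.197 FPKM at day 19, Chac1, which breaks glutathione down, at 58.7 FPKM at day 28 against 4.37 FPKM at day 19, and Ass1 at 49.1 FPKM at day 28 against 2.32 FPKM at day 19. The hepcidin genes Hamp and Hamp2 were lower, with 2.01 and 58.7 FPKM at day 28, against 20.7 and 368 FPKM at day 19; these 2 genes are close copies. Btc, an EGF receptor ligand, was lower, with 5.77 FPKM at day 28 against 24 FPKM at day 19, and Areg, another, was higher, with 5.86 FPKM at day 28 against 1.77 FPKM at day 19.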
